A study of Arabidopsis thaliana with 6 samples.

Results

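The IQD genes (IQ67-DOMAIN) of Arabidopsis thaliana were followed in whole seeds of wild type plants and of plants that carry an auxin-producing transgene. Members were taken by name, as every locus whose RefSeq symbol or synonym is IQD followed by a number, which gave 33 genes of the 33323 loci in the table. A mean of at least 0.5 RPKM (reads per kilobase of gene, scaled to the size of the library) over the 6 libraries marked a gene as measured, and 29 of the 33 members met it. Both groups were seeds at 6 days after pollination from manually selfed Col-0 plants, and each had 3 libraries of polyadenylated RNA. The first group was wild type (WT), and the second carried DD25::IaaH. IaaH, a bacterial enzyme, releases auxin by hydrolysis of indole-3-acetamide. The DD25 promoter is active in the central cell and the endosperm. The labels name no further allele or agent, and they do not say how many transgenic lines were used or whether the libraries of a group came from separate plants. The p-values therefore measure the spread between these libraries. The study asked how auxin bears on the formation of cell walls in the endosperm.

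IQD proteins are plant proteins that carry a stretch of calmodulin-binding IQ motifs, the IQ67 domain. Calmodulin is the main calcium sensor protein of the cell, and many IQD proteins bind it while sitting on microtubules, the cell membrane or in the nucleus. On cortical microtubules several of them also recruit the kinesin light chain-related (KLCR) proteins, and family members are known for roles in cell shape, in placing the division plane and in the walls of growing organs. In seeds, IQD9 and KLCR1 are known for their part in the mucilage of the seed coat.

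The coding sequence of the IQ motif, the feature the family is named for, is shown for the 7 members that were lower in DD25::IaaH seeds. It is also shown for the relative nearest to each in protein sequence. Some of these pairs had like RNA differences, such as IQD6 and IQD8, and others unlike ones, such as IQD29 and IQD28. The motif was searched in proteins translated from RefSeq coding sequences of the assembly TAIR10.1, as 11 residues with isoleucine, leucine, valine or phenylalanine first, then glutamine, and later arginine, glycine and a closing basic residue. Each line runs 5′ to 3′ on the strand of the gene and covers the first match, and the capitals mark the codons of those fixed residues.
IQD16: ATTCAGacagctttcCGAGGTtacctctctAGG
IQD17: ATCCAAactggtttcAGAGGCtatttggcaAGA
IQD29: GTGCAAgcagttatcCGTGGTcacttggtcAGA
IQD28: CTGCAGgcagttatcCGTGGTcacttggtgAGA
IQD31: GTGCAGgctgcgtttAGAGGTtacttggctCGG
IQD30: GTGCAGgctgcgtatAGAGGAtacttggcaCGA
IQD8: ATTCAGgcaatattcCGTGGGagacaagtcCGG
IQD7: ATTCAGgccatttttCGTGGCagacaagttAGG
IQD6: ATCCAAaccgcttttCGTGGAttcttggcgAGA
IQD5: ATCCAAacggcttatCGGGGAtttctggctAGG
IQD14: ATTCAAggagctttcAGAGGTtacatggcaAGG
IQD13: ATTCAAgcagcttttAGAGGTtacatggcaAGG

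Of the 33 bases, IQD14 and IQD13 shared 31, IQD29 and IQD28 shared 30, and IQD31 and IQD30 shared 29. IQD8 shared 27 with IQD7, IQD5 shared 26 with IQD6, IQD16 shared 21 with IQD17, and IQD6 shared 14 with IQD8. The pattern matched 2 times in IQD6, first at residue 90, and 1 time in IQD8, at residue 121. The stretches of IQD6 and IQD8 may thus be different motifs of the domain, which was not tested. The motif of IQD29 lies at chr2:789280-789312 on the plus strand and that of IQD28 at chr1:4920202-4920234 on the minus strand, each within 1 exon. The coding bases of the IQD16 motif are interrupted by an intron and span chr4:6572409-6572775 on the plus strand. Such a split was found in the first match of 22 members, and in 7 the first match lay within 1 exon. A first match need not be the first motif of the domain, since a motif with other residues is missed. The pattern occurred at least once in 29 of the 33 proteins and at least 2 times in 20, and in 18 the first 2 matches started 22 residues apart. IQD4, IQD9, IQD10 and IQD33 held no match, which says only that these residues do not occur in that spacing. Protein lengths ran from 103 residues in IQD20 to 794 in IQD32, with a median of 443.

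The libraries held 6.50 to 17.8 M reads (M for mega), so 3 reads of a 1 kb gene stood for 0.169 RPKM in the deepest library (WT 1) and 0.462 RPKM in the shallowest (DD25::IaaH 2). Markers of embryo, endosperm and seed coat were all detected. WT 1 and WT 2 stood apart in one respect: 82.1% and 63.8% of annotated pseudogenes were above 0 in them, against 27.7% in WT 3 and 21.3 to 32.9% in the DD25::IaaH libraries. In a principal component analysis the first component (68.4% of variance) separated the genotypes, and the second (12%) set WT 3 apart from WT 1 and WT 2. Fits without WT 1 and WT 2 were therefore run as well. These leave WT 3 as the only WT library, so the spread of WT is not measured in them. A call lost there does not show that the difference depends on WT 1 and WT 2.

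Among the measured IQD genes, 7 fell in DD25::IaaH seeds and 0 rose. The call was an adjusted p under 0.05 in limma's moderated test on log2(RPKM + 0.5), adjusted over all 20880 genes that met the 0.5 RPKM mark. The 7 members are 24.1% of the 29 measured, beside a background of 6.72% of all tested genes called lower and 8.25% called higher. With any 1 library left out, 3 to 4 members were called lower, and without WT 1 and WT 2 the count was 1 (IQD16). Among the 29, 24 had a lower mean log2 value in DD25::IaaH, or 82.8%, against 46.5% of all tested genes. The median log2 fold change was -0.28 in the family and 0.03 over all tested genes, and members ranged from -1.54 (IQD16) to 0.21 (IQD1). In 13 members (44.8%) every DD25::IaaH library lay below every WT library, against 14.9% of all tested genes, and in 0 members did every one lie above, against 18.4%. The family was chosen with earlier results of these data known, so these shares describe it and are no test of it. In whole-seed RNA, fewer cells that express a gene and less of its RNA per cell cannot be told apart.

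**Figure D1:**
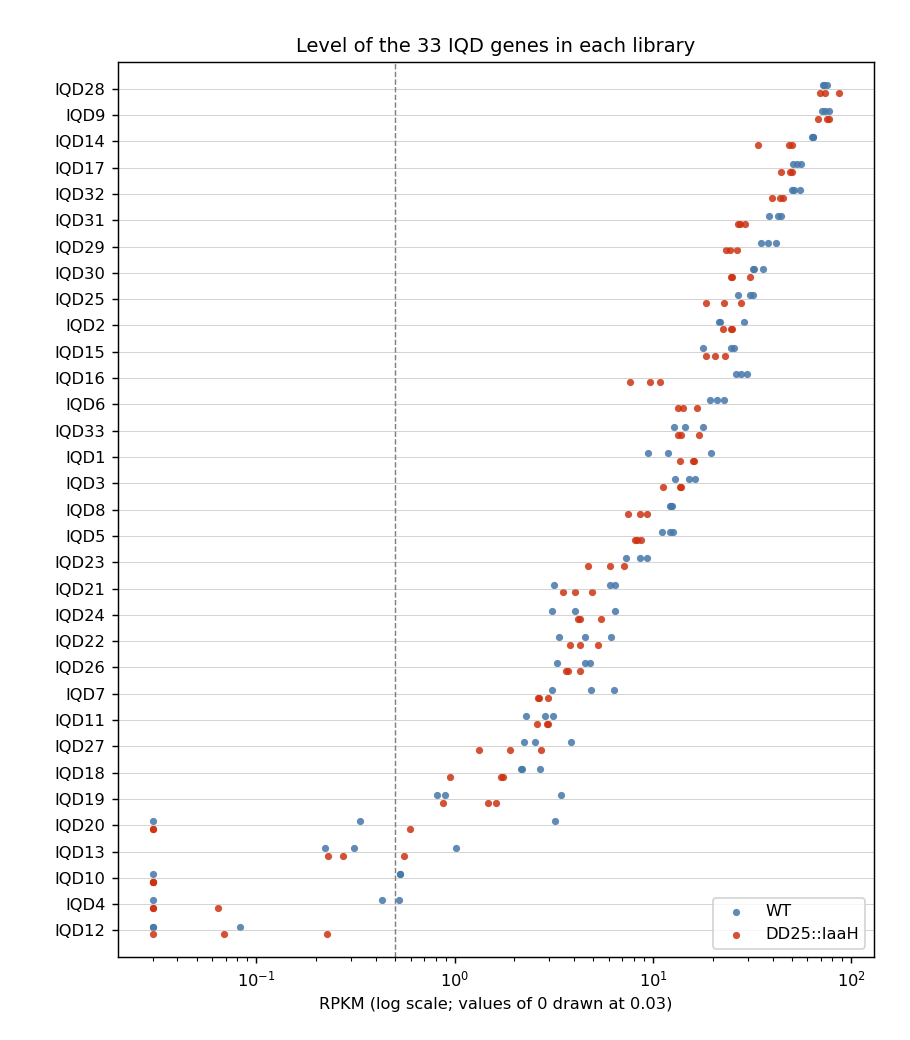
RPKM (log scale) of each of the 33 IQD genes in the 3 WT libraries (blue) and the 3 DD25::IaaH libraries (red), ordered by mean, with values of 0 drawn at 0.03 and the 0.5 RPKM mark dashed. IQD28 and IQD9 are the highest in every library, and IQD16 shows the widest gap between the genotypes among the measured genes whose libraries all lie above 1 RPKM.

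The summed level of the 33 genes was 669, 661 and 670 RPKM in the WT libraries and 560, 558 and 530 RPKM in the DD25::IaaH libraries. The groups did not overlap. IQD28 and IQD9 were the highest members in each of the 6 libraries, and the 4 highest members (IQD28, IQD9, IQD14 and IQD17) made up 38.9 to 40.5% of the sum in WT and 43.1 to 46.7% in DD25::IaaH. All 7 called members were among the 18 with a mean of at least 10 RPKM, where 15 members had a negative log2 fold change and the median was -0.30. Over all 10931 tested genes at that level, 7.2% were called lower and the median was 0.05. None of the 11 less abundant members was called in the limma fit, although 9 had a negative value and their median was -0.25. Over all 9949 tested genes below that level, 6.2% were called lower and the median was 0.0.

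IQD16 showed the largest decrease among the called members. Its product is known to work with the microtubule-severing katanin subunit KTN1. The gene (AT4G10640, chr4:6571894-6574586, plus strand) was measured at 26.2, 27.7 and 29.9 RPKM in WT 1 to 3 and at 7.69, 10.8 and 9.61 RPKM in DD25::IaaH 1 to 3, which rested on 104 to 693 reads a library. Every WT library was more than 2 times as high as every DD25::IaaH library. Mean levels were 27.9 ± 1.85 and 9.36 ± 1.55 RPKM (SD, n = 3 each), 2.98-fold lower in DD25::IaaH. The log2 fold change was -1.54 ± 0.15 (SE), with a limma adjusted p of 0.000204. IQD16 was called under each of the 18 alternatives it was tested in, with log2 fold changes from -1.64 to -1.41 and a highest adjusted p of 0.0451, reached without WT 1 and WT 2. Its relative nearest in sequence, IQD17 (36.1% protein identity), was measured at 53.4, 55.8 and 50.5 RPKM in WT, against 49.0, 49.9 and 44.1 RPKM in DD25::IaaH. The IQD17 groups did not overlap, but the difference was small, at -0.16 on the log2 scale (95% interval -0.41 to 0.09, limma adjusted p 0.394).

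IQD29 and IQD31 came next. They are long members of the family, with 636 and 587 residues, and no role is given for them here. IQD29 (AT2G02790, chr2:787885-791289, plus strand) was at 38.0, 41.5 and 35.1 RPKM in the WT libraries and at 23.2, 26.6 and 24.5 RPKM in the DD25::IaaH libraries. IQD31 (AT1G74690, chr1:28061159-28064771, minus strand) was at 44.3, 42.6 and 38.4 RPKM in WT, against 27.4, 29.0 and 26.9 RPKM in DD25::IaaH. In both genes each WT library lay well above each DD25::IaaH library, and the replicates of a genotype lay close together. IQD29 fell from a mean of 38.2 ± 3.19 to 24.8 ± 1.71 RPKM (SD, n = 3 each), a log2 fold change of -0.61 ± 0.12 (SE) with a limma adjusted p of 0.0101. IQD31 fell from 41.8 ± 3.04 to 27.8 ± 1.14 RPKM, a log2 fold change of -0.58 ± 0.11 (SE) at the same adjusted p of 0.0101. Each stayed called when any 1 library was left out, at adjusted p of up to 0.0495 for IQD29 and 0.0459 for IQD31. Without WT 1 and WT 2 together, which leaves WT 3 as the only WT library, the values were -0.50 and -0.46.

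The division-plane members IQD6, IQD7 and IQD8 are known to act at the preprophase band together with the kinesins POK1 and POK2. IQD8 (AT1G72670, chr1:27356459-27358863, minus strand) was at 12.2, 12.3 and 12.4 RPKM in the WT libraries and at 7.47, 9.30 and 8.56 RPKM in the DD25::IaaH libraries. IQD6 (AT2G26180, chr2:11143290-11145103, minus strand) was at 22.9, 19.3 and 21.0 RPKM in WT, against 13.3, 16.7 and 14.1 RPKM in DD25::IaaH. Neither gene's groups overlapped, and the WT values of IQD8 were almost equal. Log2 fold changes were -0.52 ± 0.14 (SE, adjusted p 0.0409) for IQD8 and -0.51 ± 0.14 (SE, adjusted p 0.041) for IQD6 in limma. These calls were near the threshold: IQD8 was not called when any single library was left out (adjusted p 0.0557 to 0.146), and IQD6 was called in 1 of the 6 such fits, without DD25::IaaH 2 (0.043, against up to 0.143 in the others). The log2 fold changes in those fits stayed between -0.59 and -0.44 for IQD8 and between -0.60 and -0.45 for IQD6.

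The third gene of this group, IQD7, was less abundant, at 3.11, 4.89 and 6.33 RPKM in the WT libraries and 2.67, 2.94 and 2.63 RPKM in the DD25::IaaH libraries. The DD25::IaaH values lay together below all WT values, which were spread over a wide range. Its log2 fold change of -0.65 (95% interval -1.23 to -0.08) had a limma adjusted p of 0.128 and passed the threshold only without WT 1 (-0.90, adjusted p 0.0479).

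IQD5, known for the lobed shape of leaf pavement cells, and IQD14, the closest relative of the xylem gene IQD13, were the remaining called members. IQD5 (AT3G22190, chr3:7830905-7834135, minus strand) was at 12.6, 11.1 and 12.1 RPKM in WT, against 8.72, 8.30 and 8.14 RPKM in DD25::IaaH. IQD14 (AT2G43680, chr2:18108119-18111831, plus strand) was at 64.0, 63.8 and 63.4 RPKM in the WT libraries and at 48.4, 49.9 and 33.8 RPKM in the DD25::IaaH libraries. The groups were separate in both genes, and DD25::IaaH 3 was clearly the lowest library for IQD14. Log2 fold changes were -0.48 ± 0.14 (SE, adjusted p 0.0459) for IQD5 and -0.55 ± 0.16 (SE, adjusted p 0.0472) for IQD14 in limma. Neither was called when any 1 library was left out, with adjusted p of 0.073 to 0.138 for IQD5 and 0.0532 to 0.131 for IQD14. Without DD25::IaaH 3 the log2 fold change of IQD14 was -0.37. Without WT 1 and WT 2 together, IQD8, IQD6, IQD5 and IQD14 were not called (adjusted p 0.27 to 0.393).

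**Figure D2:**
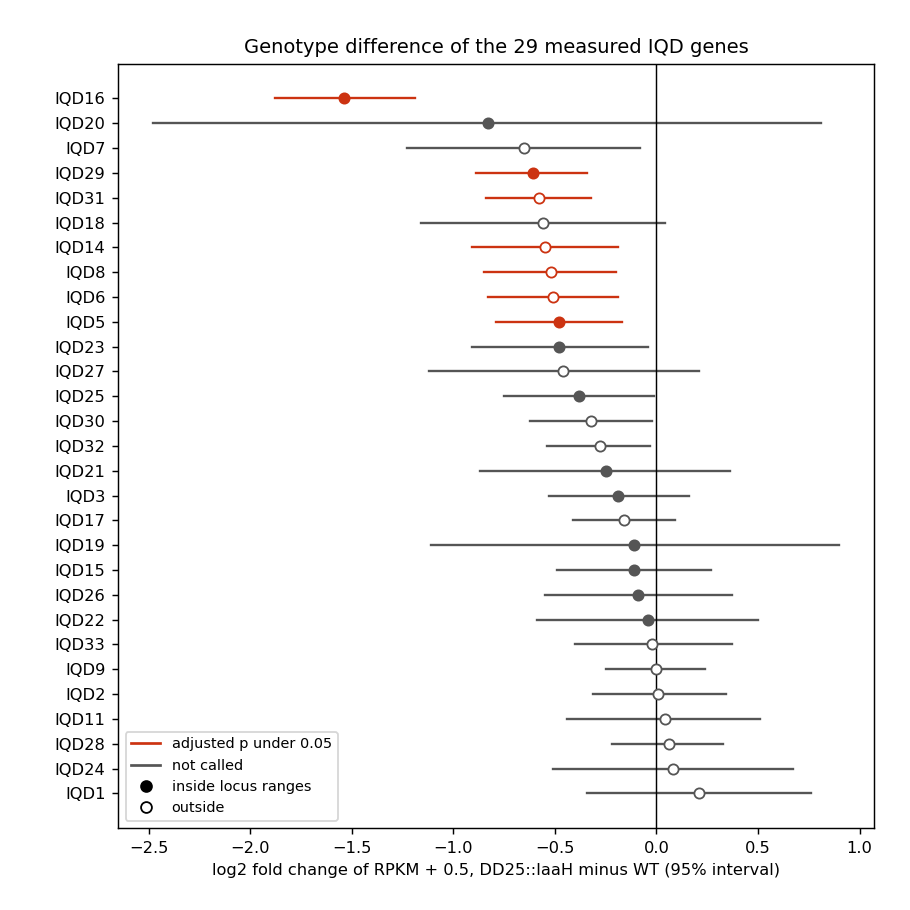
Log2 fold change (DD25::IaaH minus WT, of RPKM + 0.5) of the 29 measured IQD genes with 95% intervals from limma, red where the adjusted p was under 0.05 and filled where the gene lies inside the locus ranges of near-absent genes. The 7 called genes lie on the negative side, IQD16 far from the rest, and the interval of IQD20 is the widest.

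IQD28 and IQD9, the most abundant members, did not pass the test. IQD28 (AT1G14380), the close relative of IQD29, was at 72.0, 72.9 and 75.1 RPKM in WT, against 86.8, 73.7 and 69.2 RPKM in DD25::IaaH. IQD9 (AT2G33990), of seed coat mucilage, was at 71.0, 73.2 and 77.3 RPKM in the WT libraries and at 77.4, 68.2 and 75.7 RPKM in the DD25::IaaH libraries. Both genes' groups overlapped. The 95% intervals of the log2 difference ran from -0.22 to 0.33 for IQD28 (adjusted p 0.816) and from -0.25 to 0.24 for IQD9 (adjusted p 0.989), so a decrease as large as that of IQD29 lay outside both.

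IQD32, IQD30 and IQD23 had every DD25::IaaH library below every WT library and an unadjusted p under 0.05, without passing after adjustment. Mean levels were 52.2 and 42.8 RPKM for IQD32 (log2 fold change -0.28, adjusted p 0.134), 33.4 and 26.8 RPKM for IQD30 (-0.32, adjusted p 0.15) and 8.40 and 5.95 RPKM for IQD23 (-0.48, adjusted p 0.138). IQD25, at 29.8 and 23.0 RPKM, had overlapping groups (-0.38, adjusted p 0.165). With IQD7 these make 5 members whose unadjusted p was under 0.05 but which were not called. Together with the 7 called members, 12 of the 29 (41.4%) were lower at that unadjusted level, against 13.1% of all tested genes.

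IQD1, IQD2 and IQD3 form a further set. IQD1 is known as a regulator of glucosinolate defence compounds and as a partner of KLCR1. IQD1 averaged 13.6 ± 5.32 RPKM in the wild type, against 15.2 ± 1.36 with the transgene (SD, n = 3 each), the largest positive log2 fold change in the family at 0.21, with an interval from -0.34 to 0.76. Without WT 1 and WT 2 the IQD1 value was -0.36. IQD2 averaged 24.0 RPKM in both groups, and IQD3 averaged 14.8 and 12.9 RPKM. None of these differences passed the test in limma (adjusted p 0.469 to 0.967).

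IQD15 was of middle level, with means of 22.6 RPKM (WT) and 20.7 RPKM (DD25::IaaH). IQD33 ran from 12.7 to 17.9 RPKM in the WT libraries and from 13.4 to 17.1 RPKM in the others. IQD21, IQD22, IQD24 and IQD26 averaged 4.21 to 5.21 RPKM in WT, against 3.88 to 4.64 RPKM in DD25::IaaH. IQD11, IQD27, IQD18 and IQD19 were less abundant, with group means of 1.71 to 2.87 RPKM (WT) and 1.32 to 2.82 RPKM (DD25::IaaH). The limma adjusted p of these 10 genes ran from 0.205 (IQD18) to 0.961 (IQD33). Of the 10, only IQD18 had separate groups, at means of 2.36 and 1.47 RPKM. The single high value of IQD19, 3.43 RPKM, was in WT 3.

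A few members lay at the limit of detection. IQD20, just inside the mark with a mean of 0.692 RPKM, passed it through 1 library: it had 18 reads in WT 2, 2 in WT 3, 4 in DD25::IaaH 1 and 0 in the other libraries, and its log2 fold change of -0.83 had an interval from -2.48 to 0.81. IQD13, known for the shape of wall pits in xylem and just outside the mark with a mean of 0.434 RPKM, was at 1.01, 0.223 and 0.311 RPKM in WT, against 0.556, 0.230 and 0.274 RPKM in DD25::IaaH. IQD10 had reads only in WT 1 (8) and WT 2 (4). IQD4 had 13 reads in WT 1, 8 in WT 2 and 1 in DD25::IaaH 3, and 0 elsewhere. IQD12 had 4 reads in all. The reads of IQD10, and all but 1 read of IQD4, were thus in the libraries that also had the most pseudogenes above 0, and the part of that in these values was not tested.

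Some pairs of members had proteins identical over at least 50% of the longer one, and they show how unequal the levels of close relatives were. IQD14 averaged 63.7 RPKM in WT while IQD13 averaged 0.514 RPKM, with 55.9% identity. IQD17 averaged 53.3 RPKM while IQD18 averaged 2.36 RPKM, with 70.6% identity. For the 7 pairs with both members measured, the log2 ratio of the pair's RPKM + 0.5 values was compared between genotypes with an exact two-sided permutation test, whose smallest possible p with 3 against 3 libraries is 0.1. The ratio of IQD28 to IQD29 was 0.91, 0.81 and 1.09 in WT and 1.88, 1.45 and 1.48 in DD25::IaaH on the log2 scale. All 3 DD25::IaaH ratios were above the WT ratios, with a mean of 0.94 ± 0.14 in WT and 1.60 ± 0.24 in DD25::IaaH (SD, n = 3 each) and the smallest possible exact p of 0.1 (0.233 adjusted over the 7 pairs).

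The IQD30 to IQD31 ratio was higher in DD25::IaaH, with means of -0.32 in WT and -0.06 in DD25::IaaH, and the IQD18 to IQD17 ratio was lower in DD25::IaaH at -4.64 against -4.24, each with separate groups and an exact p of 0.1. The ratios of IQD7 to IQD8, IQD1 to IQD2, IQD24 to IQD23 and IQD27 to IQD26 overlapped between genotypes, with exact p of 0.2 to 0.7. The sources used here do not give how reads that match both genes of a pair were counted. Among the printed pairs, the motif coding was most alike in IQD14 and IQD13, whose levels differed most.

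**Figure D3:**
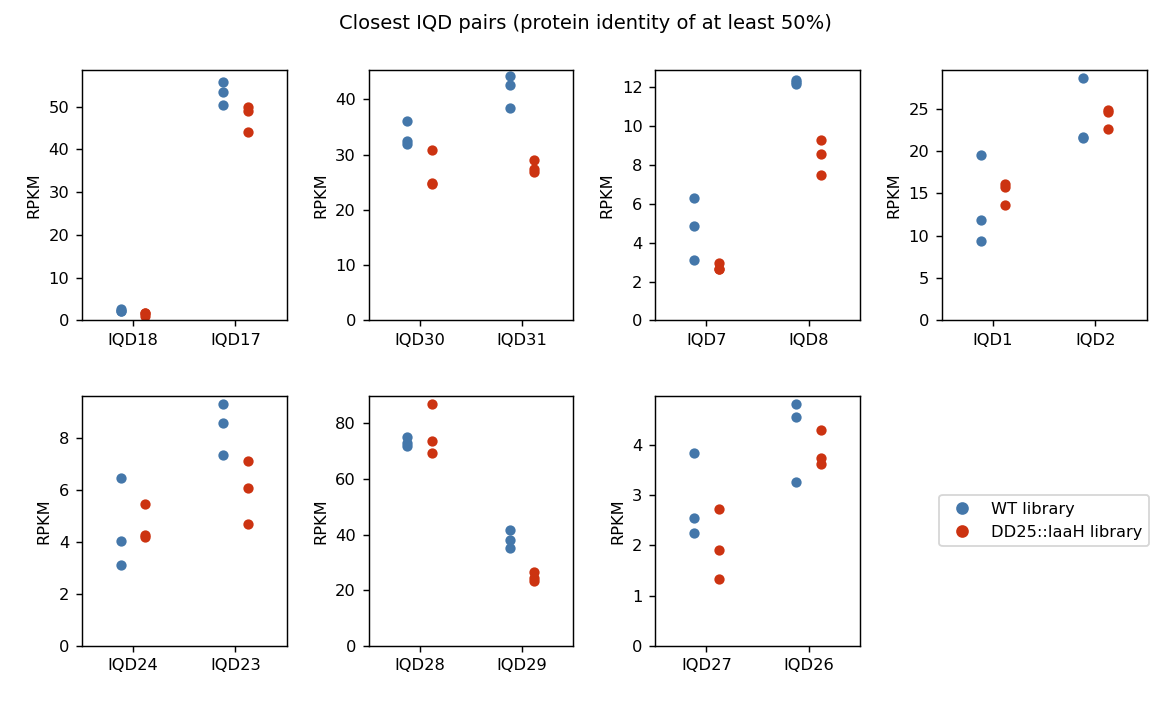
RPKM of both genes of the 7 closest measured pairs (protein identity of at least 50%) in each WT (blue) and DD25::IaaH (red) library, each panel with its own axis from 0. In the IQD28 and IQD29 panel the red and blue points of IQD28 overlap while those of IQD29 lie apart, and in the IQD18 and IQD17 panel IQD17 holds nearly all of the pair's level.

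Some called members lie inside wide locus ranges that are bounded by genes nearly absent from DD25::IaaH. These near-absent genes were chosen by their measured RPKM in the same 6 libraries. They had at least 3 RPKM in every WT library, and every DD25::IaaH value was under 1 part in 15 of the lowest WT value. The ranges ran from the first to the last such locus on chromosome 2 (19 genes, AT2G02360 to AT2G15292), chromosome 3 (26, AT3G16400 to AT3G61020), chromosome 4 (24, AT4G01593 to AT4G37320) and chromosome 5 (12, AT5G48412 to AT5G66053). They held 7216 of the 20880 tested genes, and whether the near-absent genes cluster within them was not tested. The 12 measured IQD genes inside these ranges all had a negative log2 fold change (median -0.32), and IQD16, IQD29 and IQD5 were called. The values of 5 uncalled members inside, IQD15, IQD19, IQD20, IQD21 and IQD22, were positive under at least 1 alternative. Of the 17 outside, 12 were negative (median -0.28), and IQD31, IQD8, IQD6 and IQD14 were called. Over all tested genes, 11.9% of those inside the ranges and 3.99% of those outside were called lower. The share of negative values among all tested genes inside is not given here, so the 12 have no such background beside them. The part of the chromosomal position in the IQD values was not tested. No IQD gene was itself near-absent by that definition.

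Among the 5 tested genes on each side of IQD16, 1 was called lower and 1 higher, and their median log2 fold change was -0.22. Of the 10 such neighbours, 0 were called lower beside IQD29, IQD31, IQD6, IQD5 and IQD14, and 2 beside IQD8, while 2 were called higher beside IQD29 and 2 beside IQD14. IQD16, IQD6, IQD8 and IQD5 overlap a gene on the opposite strand, and since the strand setting of the counting is not given, their reads cannot be told apart from those of the partner. The partner of IQD16 averaged 1.24 RPKM in WT and that of IQD6 averaged 2.44 RPKM, far below the IQD gene. The partner of IQD8 averaged 0.26 RPKM. The partner of IQD5 (AT3G22183) averaged 25.4 RPKM in the WT libraries and 18.9 RPKM in the DD25::IaaH libraries, with a log2 fold change of -0.41 and a limma adjusted p of 0.0512.

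The 250 bases before the RefSeq gene start were searched on both strands for 2 short elements: TGTCTC, the auxin response element, and AACGG, the core of the mitosis-specific activator element. TGTCTC occurred before 2 of the 33 IQD genes (6.1%), IQD6 and IQD30, and before 10.5% of 19854 tested protein-coding genes. AACGG occurred before 10 of the 33 (30.3%), among them the called genes IQD8 and IQD14, against 21.8% of all. Neither element occurred before the called genes IQD16, IQD29, IQD31 and IQD5, or before the division-plane gene IQD7. The windows of the other division-plane genes, IQD6 and IQD8, are printed on the strand of the gene with the match in capitals. They hold different elements, TGTCTC in IQD6 and AACGG in IQD8, each read as its reverse complement (GAGACA and CCGTT). The IQD6 window is chr2:11145104-11145353 and the IQD8 window chr1:27358864-27359113, both on the minus strand of TAIR10.1.
IQD6: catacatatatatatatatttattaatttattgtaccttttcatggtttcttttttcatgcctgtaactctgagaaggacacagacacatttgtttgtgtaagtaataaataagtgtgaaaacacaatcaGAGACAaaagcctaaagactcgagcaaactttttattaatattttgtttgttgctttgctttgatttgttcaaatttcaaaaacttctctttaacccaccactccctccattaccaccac
IQD8: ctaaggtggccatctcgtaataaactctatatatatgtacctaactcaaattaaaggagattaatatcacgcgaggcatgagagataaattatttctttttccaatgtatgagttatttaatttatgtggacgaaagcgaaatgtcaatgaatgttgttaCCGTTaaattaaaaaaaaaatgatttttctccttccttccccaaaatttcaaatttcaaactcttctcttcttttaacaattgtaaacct
A match is only a run of letters, and no binding was measured here.

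The known partners of IQD proteins were examined next, from lists that were chosen with earlier results of these data known. Of the 7 calmodulin genes, 0 were called in either direction by limma, where 6.72% of all tested genes were lower and 8.25% higher. CAM1 averaged 303 RPKM in WT, against 255 RPKM in DD25::IaaH (adjusted p 0.459), and CAM2 averaged 48.9 and 59.4 RPKM (adjusted p 0.198), the lowest adjusted p of the list. All 3 KLCR genes had every DD25::IaaH library below every WT library, against 14.9% of all tested genes, and 1 of the 3 was called. KLCR1, the partner of IQD1 and IQD9, fell from 64.0 ± 2.85 to 44.5 ± 1.08 RPKM (SD, n = 3 each), a log2 fold change of -0.52 ± 0.10 (SE, adjusted p 0.0112 in limma). KLCR2 averaged 14.2 and 8.34 RPKM (-0.69, adjusted p 0.0836), and KLCR3 averaged 5.07 and 3.80 RPKM (-0.38, adjusted p 0.226). KLCR1 and KLCR2 lie inside the locus ranges given above.

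Of the tracks that IQD proteins sit on, 2 of 15 tubulin genes were lower and 0 higher in limma, and 13 were not called (list median -0.12). Over all tested genes, 6.72% were lower and 8.25% higher. TUB8 fell from 46.6 ± 1.45 to 23.4 ± 2.65 RPKM (-0.98, adjusted p 0.000852), and TUA5 from 189 to 114 RPKM (-0.73, adjusted p 0.00362). Of 8 tested MAP65 genes, which encode microtubule bundlers, 3 were lower and 1 was higher. MAP65-3, of the phragmoplast, fell from 20.2 to 12.7 RPKM (-0.66, adjusted p 0.00984), whereas MAP65-5 rose from 4.82 to 10.6 RPKM (1.07, adjusted p 0.0131). MAP65-6 (-0.70, adjusted p 0.0162) and MAP65-4 (-0.56, adjusted p 0.029) were the other lower genes.

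Of 14 tested regulators of the cortical array, 2 were lower and 0 higher, beside 6.72% lower and 8.25% higher over all tested genes. The plus-end tracker EB1B fell from 97.0 to 56.1 RPKM (-0.78, adjusted p 0.00391), and TON1A, of the preprophase band, from 27.0 to 17.9 RPKM (-0.58, adjusted p 0.0231). KTN1, the partner of IQD16, averaged 21.8 and 19.1 RPKM and was not called (-0.19, adjusted p 0.352). The array regulator SPR2 was not called either, at 21.7 and 20.7 RPKM (-0.06, adjusted p 0.834). Of the 4 tested division-zone genes, 0 were called. POK1, a partner of IQD6 to IQD8, averaged 3.99 and 2.38 RPKM (-0.68, adjusted p 0.136), and POK2 averaged 7.87 and 5.65 RPKM (-0.47, adjusted p 0.19).

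KLCR1, TUB8, TUA5, MAP65-3 and EB1B kept their calls when any 1 library was left out. MAP65-5 was not called without WT 1 or DD25::IaaH 1 (adjusted p up to 0.0597). MAP65-6 and MAP65-4 lost their calls in 4 of the 6 fits, those that left out WT 1 or 2 and those that left out DD25::IaaH 1 or 3 (up to 0.0709 and 0.0925). TON1A lost its call when WT 1 or 2 was left out, and when DD25::IaaH 2 or 3 was (up to 0.0706). Without WT 1 and WT 2 together, 0 genes of these lists were called.

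**Figure D4:**
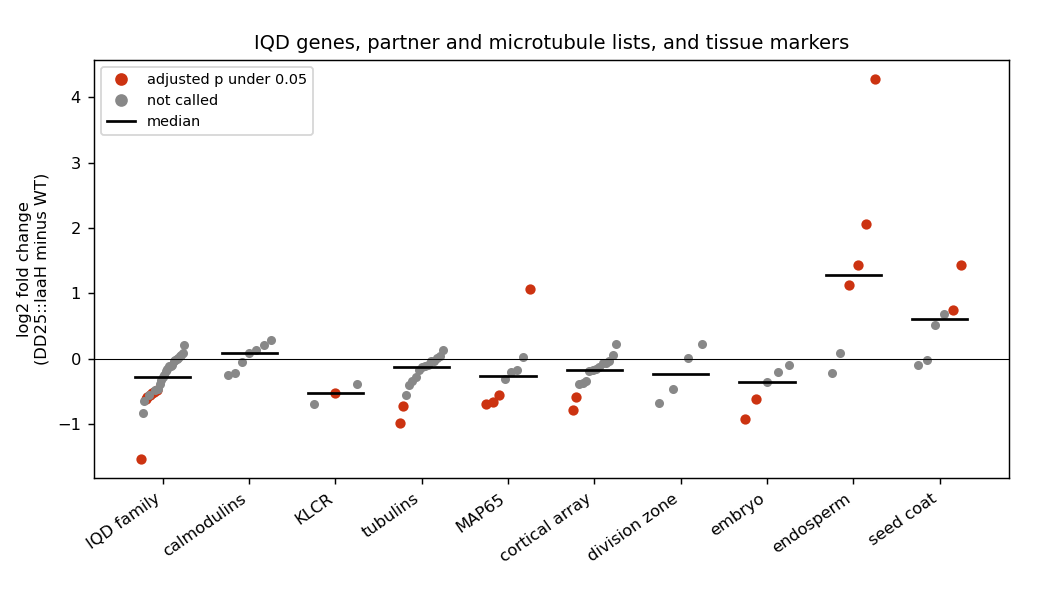
Log2 fold change (DD25::IaaH minus WT) of each tested gene of the IQD family, the partner and microtubule lists and 3 tissue marker lists, red where limma's adjusted p was under 0.05, with a bar at each list's median. The IQD, KLCR, MAP65 and embryo medians lie below 0, the calmodulin median lies near 0, and the endosperm and seed coat medians lie above it.

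Some marker genes of the seed's tissues differed between the same groups, where 6.72% of all tested genes were lower and 8.25% higher. Of 5 tested embryo markers, 2 were lower and 0 higher (median -0.35), with WOX9 at 15.7 and 8.14 RPKM (-0.92, adjusted p 0.0113) and FUS3 at 34.7 and 22.2 RPKM (-0.62, adjusted p 0.0211) in limma. WOX8 (-0.21), LEC1 (-0.10) and WOX2 (-0.35) were not called. The 6 embryo markers summed to 229 to 234 RPKM in the WT libraries and 178 to 210 RPKM in the DD25::IaaH libraries. Of 6 endosperm markers, 4 were higher (median 1.28): PHE1 at 3.50 and 76.5 RPKM (4.28, adjusted p 8.33e-06), AGL62 (2.06), FIS2 (1.13) and FWA (1.43). ZOU, at 33.5 and 28.8 RPKM (-0.22), and MEA (0.09) were not called. The list summed to 37.8 to 47.0 RPKM in WT, against 107 to 146 RPKM in DD25::IaaH. By mean, ZOU was the highest of the list in WT and PHE1 in DD25::IaaH.

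Of 6 seed coat markers, 2 were higher, BAN (0.75, adjusted p 0.0149) and TT12 (1.43, adjusted p 0.021), with sums of 1690 to 2600 RPKM and 2850 to 3230 RPKM. TT4 (0.69), STK (0.52), TT8 (-0.09) and GL2 (-0.02) were not called. Of 4 tested leaf and silique wall markers, CAB3 was lower (-0.93, adjusted p 0.0112), with list sums of 3910 to 4760 RPKM and 3610 to 3850 RPKM. LHCB1.3 (-0.22), RBCS1A (0.05) and ALC (-0.03) were not called. No marker of these lists was at 0 in all libraries. With any 1 library left out, 0 to 2 embryo, 2 to 4 endosperm, 0 to 4 seed coat and 0 to 1 leaf markers were called in those directions. PHE1 kept its call in each of these fits, WOX9 lost it without WT 1 or WT 2 (adjusted p up to 0.0555), CAB3 without DD25::IaaH 1 (0.0535), and FUS3, BAN and TT12 in 4 of the 6 fits (up to 0.0865, 0.07 and 0.0807). Without WT 1 and WT 2 together, WOX9, FUS3, BAN and TT12 were not called (adjusted p 0.327, 0.345, 0.29 and 0.163), and 0 embryo, 2 endosperm, 0 seed coat and 1 leaf marker were called in those directions. The lower IQD values lay beside 2 lower embryo, 4 higher endosperm and 2 higher seed coat markers. The other tested embryo, endosperm and seed coat markers were not called. The part of tissue makeup in the IQD values was not tested.

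**Figure D5:**
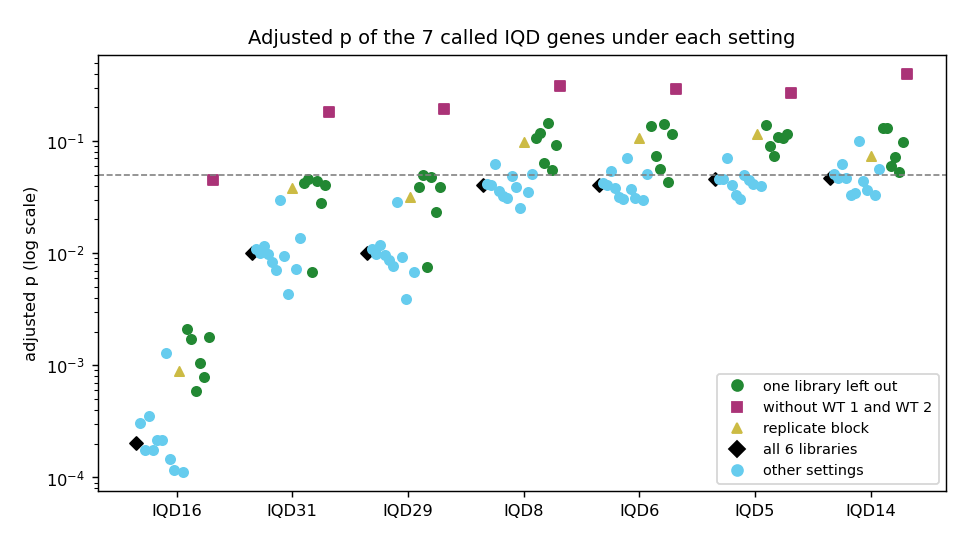
Adjusted p (log scale) of the 7 called IQD genes with all 6 libraries and under each alternative, including 1 library left out, WT 1 and WT 2 left out together, and a replicate block, with the threshold of 0.05 dashed. IQD16 lies below the line under every setting shown, IQD31 and IQD29 cross it only without WT 1 and WT 2, and the other 4 genes start just below it and cross it in most fits with 1 library left out.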

How the data were processed

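Polyadenylated RNA of whole seeds was sequenced as paired reads, per the labels' protocols, and TopHat2 2.1.0 with TAIR10 was used per the submitters' processing notes. The deposited values are RPKM, which the authors scaled for gene length and library size. How reads were counted, with which tool and strand setting, and what was done with reads that match several places is not given in the sources used here. The labels' protocols name DESeq for the authors' own test, which was not used here.

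Library depth and whole reads per gene were rebuilt from the steps of the RPKM values, and floors of 3 reads cover counting error only. In every library more genes had 2 rebuilt reads than 1, and more had 4 than 3. In WT 1 the numbers of genes with 1, 2, 3 and 4 reads were 827, 1110, 642 and 936. Whether both reads of a pair were counted was not tested, so the stated reads may stand for fewer sequenced molecules. The 95% intervals of log2 fold changes are limma's and rest on the spread between libraries. Loci were matched by identifier to RefSeq genes of TAIR10.1 (32835 of 33323 matched), which gave names, coordinates and sequences. Genes whose mean over the 6 libraries reached 0.5 RPKM entered a limma fit (version 3.58.1, R 4.3.3) of log2(RPKM + 0.5) with eBayes and a mean-variance trend. The fit had a genotype term only, and tests were two-sided. P-values were adjusted over all tested genes with Benjamini and Hochberg's method. Each log2 fold change is the DD25::IaaH mean minus the WT mean of the log2 values, and they understate changes of genes with low values. The fit was tested on simulated data.

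The IQD members, the context lists and the tests were chosen with earlier results of these data known. Every member was named, and the called members, the 4 most abundant and those beside the 0.5 RPKM mark were given with the value of each library. Up to 4 genes of each context list were taken by adjusted p into the alternatives, and not all of them were named above. Those left out were CAM7, CAM6, TUB1, TUB3, TON1B, CSI1, TAN and RANGAP1, none of them called with all 6 libraries. KTN1 was also named as a known partner, SPR2 as a further array regulator, and KLCR3 to complete a short list. Every tested marker of the embryo, endosperm, seed coat, and leaf and silique wall lists was named. In all, 19 alternatives were tried: pseudocount, filter, scaling, variance model, limma voom on rebuilt reads, locus ranges, replicate block and libraries left out.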

Additional observations from a re-analysis of the deposited data

How the results depend on the processing

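The 7 called IQD genes kept a negative log2 fold change under every alternative run for them. Of the 29 measured members, 12 took both signs over the settings, and none of these 12 was called in any: IQD20 ran from -1.46 to 0.01, IQD21 from -0.54 to 0.33, IQD1 from -0.36 to 0.50 and IQD19 from -1.14 to 0.41. IQD genes called higher numbered 0 in each of the 19 alternatives. The 7 IQD genes called lower numbered 6 with a pseudocount of 0.1 RPKM, 3 with no filter on low values and 4 with no variance trend. With 1 library left out the count ranged from 3 to 4, and without WT 1 and WT 2 it was 1. Outside the locus ranges, where only 4 of the 7 lie by construction, 1 was called (IQD31). With the replicate block the count was 3, namely IQD16, IQD29 and IQD31. Same-numbered libraries did not deviate together over all tested genes (correlations -0.08, -0.031 and -0.101). The labels name no batch, and these values do not settle whether same-numbered libraries shared one. Calls over all genes numbered 3127 with all libraries, 1434 outside the locus ranges, 790 without WT 1 and WT 2, and 1914 to 4145 with 1 library left out, the highest without WT 3. Apart from the locus ranges and the libraries left out, the cause of these shifts was not tested. The family's median log2 fold change stayed between -0.36 and -0.24. Depth limits IQD4, IQD10, IQD12, IQD13 and IQD20, for which a difference was not detectable.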
